A study of Danio rerio with 6 samples.

Results

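Transcripts of the cation channels and calcium exchangers of photoreceptors were followed in the eyes of zebrafish larvae, wild type or homozygous for a samd7 mutation. The genes were chosen by name, as those whose symbol begins with cnga or cngb together with slc24a1 and slc24a2. Of 14781 genes in the deposited table, 2 met this rule: slc24a2, which encodes a sodium/calcium/potassium exchanger, and cnga5, which encodes a channel subunit. RefSeq lists 11 zebrafish genes under such names, of which slc24a2 was found by its symbol and cnga5 as an older name of cnga2a. Another gene, cnga1a, was present under its clone name, si:dkey-22i16.2, and is described as a neighbour outside the rule, chosen after its values were seen. The remaining 8 (cnga1b, cnga2b, cnga3a, cnga4, cngb1a, cngb3.1, cngb3.2 and slc24a1) are not analysed here, so the genes measured amount to 1 exchanger and 1 undetected channel subunit rather than the full photoreceptor set.

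In the dark, cyclic GMP holds open the cyclic nucleotide-gated channels of the outer segment, and sodium and calcium flow in. Light lowers cyclic GMP, the channels close, and calcium falls because an exchanger keeps removing it, using the sodium and potassium gradients. The fall in calcium drives recovery and light adaptation. In mammals the rod channel is built from CNGA1 and CNGB1 and works beside the exchanger SLC24A1, the cone channel is built from CNGA3 and CNGB3 and works beside SLC24A2, and CNGA2 serves olfactory neurons. SLC24A2 is also made in other mammalian neurons, so a whole-eye value need not come from cones alone.

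The study measured RNA in the eyes of 6 single larvae aged 5 days post fertilization. Of these, 3 were wild type (WT) and 3 carried the stl888 allele of samd7 on both chromosomes (samd7-/-), and all were offspring of heterozygous parents. Genotypes were read from the rear part of each body, the labels do not describe the lesion, and no other allele or agent is named for either group. Each library thus stands for 1 animal, and its spread holds animal, dissection and library differences together. samd7 encodes a Polycomb group protein of photoreceptors. Libraries held 23185755 to 26672265 reads assigned to genes. The samd7 transcript was present in all larvae, with normalized read counts of 1813, 1587 and 1931 for the WT larvae and 4691, 4070 and 4479 for the mutants, so its level does not check the genotype. Values below are normalized read counts, that is, reads divided by a size factor per library. Fold changes set samd7-/- against WT after adding 1 and taking log2. They were tested with limma over the 11959 genes that reached 10 in at least 3 libraries, with p-values adjusted by Benjamini and Hochberg's method and called under 0.05.

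slc24a2 was well detected in every eye, and its difference between genotypes did not pass the test. The WT larvae gave normalized counts of 2422, 2498 and 3096, and the samd7-/- larvae 3520, 2925 and 3560. The genotypes overlapped at a single point, because WT 3 stood above samd7-/- 2. The other mutant larvae, samd7-/- 1 and samd7-/- 3, stood above every WT larva. The mean was 2672 ± 369 (SD, n = 3) in WT and 3335 ± 356 (SD, n = 3) in samd7-/-. The log2 fold change was 0.32 (SE 0.14, 95% interval 0.01 to 0.64), or 1.25-fold with an interval from 1.01-fold to 1.56-fold. The adjusted p was 0.779 by limma, and the unadjusted p was 0.0456. An unadjusted p under 0.05 was reached by 6.33% of all tested genes. In bulk eyes, a change in the number of cells and a change in RNA per cell cannot be told apart.

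**Figure D1:**
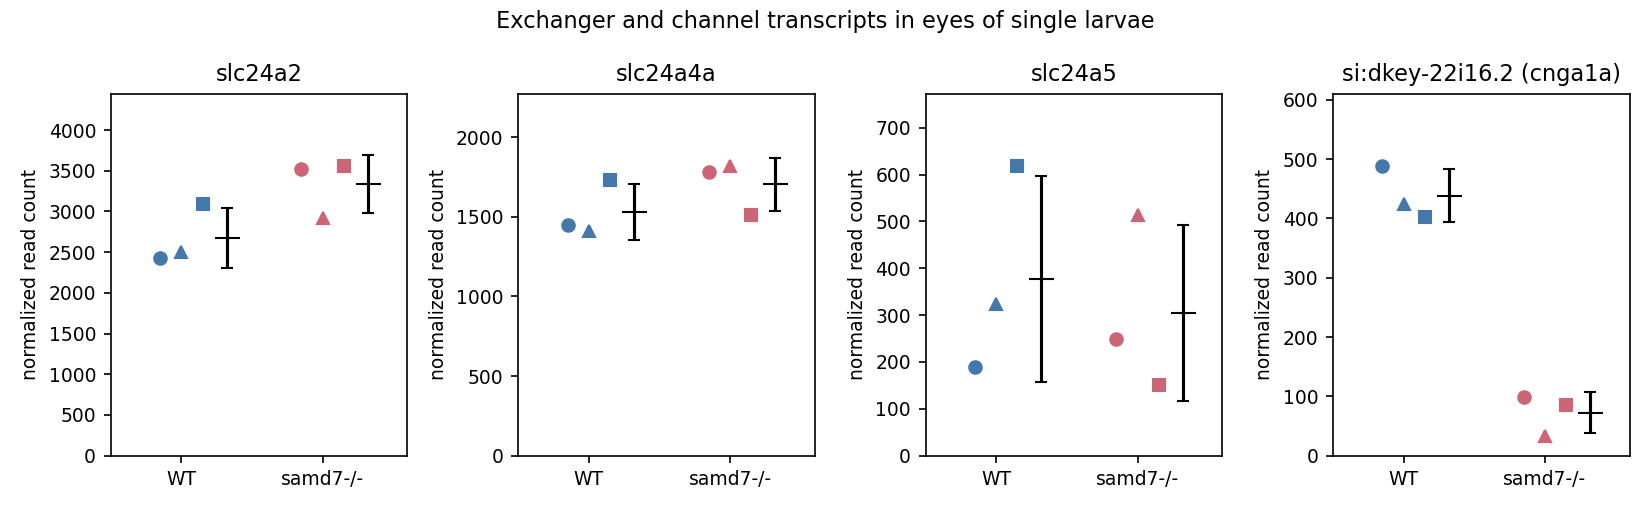
Normalized read counts (vertical axes, starting at 0) of 4 genes in WT (blue) and samd7-/- (red) eyes; circles, triangles and squares are larvae 1, 2 and 3, and the black bar is the mean ± SD (n = 3). slc24a2 overlaps between genotypes at WT 3 and samd7-/- 2, slc24a4a and slc24a5 overlap widely, and si:dkey-22i16.2 (cnga1a) lies between 402 and 489 in WT and between 33.4 and 98.3 in samd7-/-.

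Counting error, with every read taken as independent, was small beside the spread between larvae. slc24a2 drew 2249 to 3375 reads per library in WT and 2893 to 3640 in samd7-/-. Counting error alone gives a coefficient of variation of 1.66 to 2.11% at these depths, whereas the larvae varied by 13.8% in WT and 10.7% in samd7-/-. As a share of all assigned reads, slc24a2 took 0.0095% in WT 1 (95% exact binomial interval 0.00913 to 0.00988%), 0.00962% in WT 2 (0.00922 to 0.0100%) and 0.0130% in WT 3 (0.0125 to 0.0134%). The mutant shares were 0.0152% in samd7-/- 1 (0.0147 to 0.0157%), 0.0124% in samd7-/- 2 (0.0120 to 0.0129%) and 0.0157% in samd7-/- 3 (0.0152 to 0.0162%). WT 3 lay well outside the counting intervals of WT 1 and WT 2, and samd7-/- 2 outside those of the other mutants. Intervals cover counting error only. The reads carry no molecular identifiers, so copies made by amplification count as separate reads and the counting error given is a lower limit.

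cnga5 was not detected in any larva. Its normalized count was 0 in WT 1, WT 2 and WT 3 and 0 in samd7-/- 1, samd7-/- 2 and samd7-/- 3. Over 76080278 WT reads and 69987807 samd7-/- reads, a count of 0 allows up to 3 reads per genotype, a share of up to 3.94e-06% and 4.29e-06%. This limit holds only if reads of cnga5 could be assigned to it, which was not tested. The gene failed the filter on low values and gave no fold change. It was among the 935 genes of the table (6.33%) with no read in any library. RefSeq names it cnga2a, the gene of the olfactory-type alpha subunit in mammals. Among 6 olfactory neuron markers in the table, ompb and trpc2b were near the limit of detection. Their normalized counts were 0 to 2.87 and 0 to 6.66, while ompa stood at 4792 to 6782 in WT and 4953 to 5950 in samd7-/-. The 6 markers summed to 6038 to 7749 in WT and 6205 to 7168 in samd7-/-, overlapping ranges. Most of each sum was ompa, and whether it came from olfactory neurons was not tested.

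Of the members, then, 1 of 2 could be tested, and 0 passed in either direction by limma. By comparison, 0.0418% of all tested genes were called higher in samd7-/- and 0.259% lower. The member also failed after adjustment with edgeR's quasi-likelihood test and with DESeq2, which called 0.284% and 0.667% of all genes they tested. Before adjustment, slc24a2 was under 0.05 with limma but not with edgeR, whose unadjusted p was 0.0597, or DESeq2, whose unadjusted p was 0.0521. Of all genes, 6.41% were under 0.05 with edgeR and 5.82% with DESeq2. A log2 fold change at least as high as that of slc24a2 was seen in 1582 of the tested genes (13.2%).

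**Figure D2:**
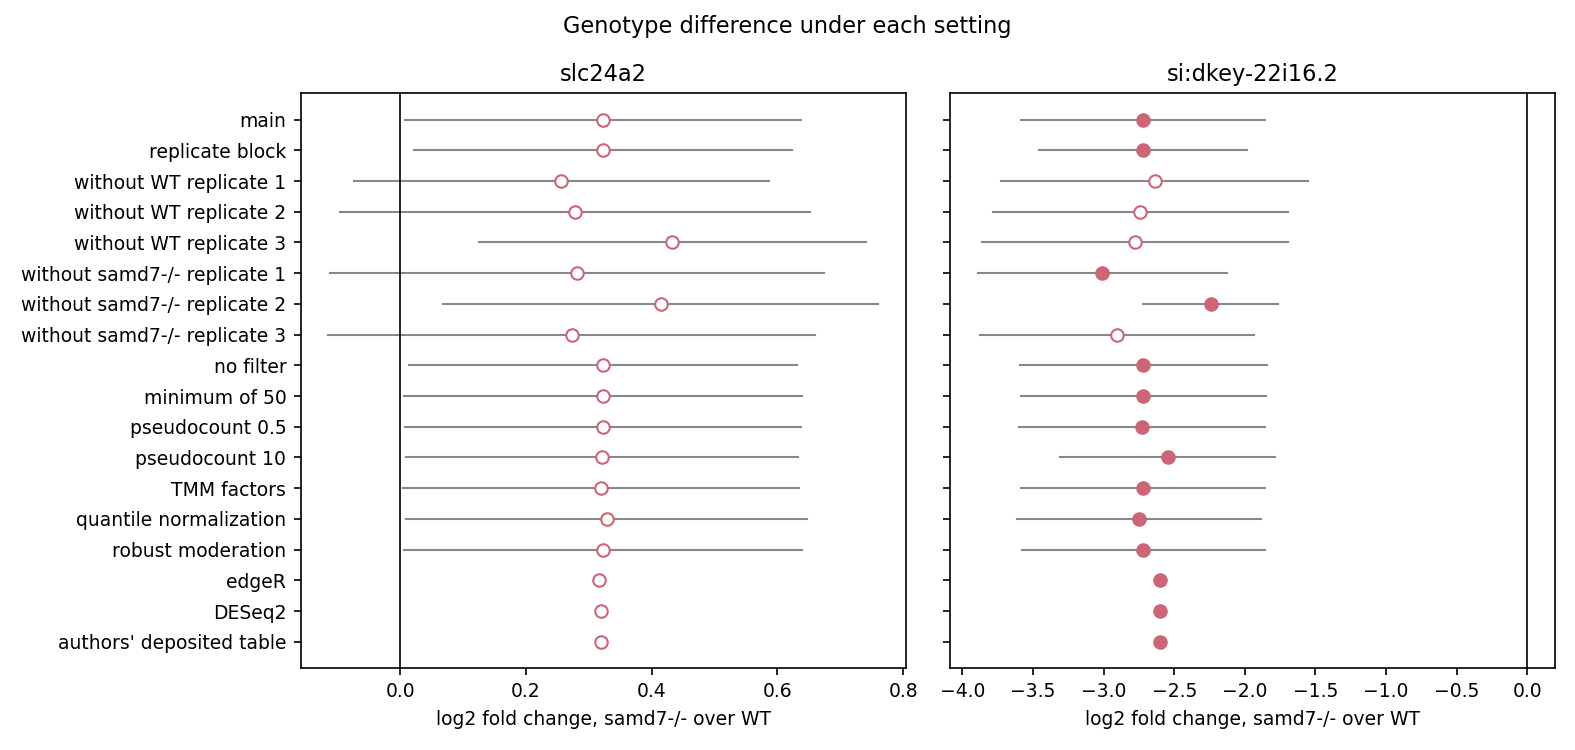
Log2 fold change of slc24a2 (left) and si:dkey-22i16.2 (right), samd7-/- over WT (horizontal axes), under each setting (vertical axis); grey lines are 95% limma intervals and filled points have an adjusted p under 0.05. slc24a2 lies between 0.26 and 0.43 and is never filled, and si:dkey-22i16.2 lies between −3.01 and −2.24 and is open without WT 1, WT 2, WT 3 or samd7-/- 3.

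The size of the slc24a2 difference depended on which larva was left out. It was lowest without WT 1 (log2 0.26) and highest without WT 3 (log2 0.43), the WT larva with the most slc24a2. Adjusted p-values from limma lay between 0.66 and 0.987 over these 6 fits. The authors' deposited table gives slc24a2 a log2 fold change of 0.32 and an adjusted p of 0.838.

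The slc24a2 counts were next set against those of gnat2, the alpha subunit of cone transducin, to ask whether the exchanger moved apart from a cone gene. gnat2 stood at 102203 ± 8958 (SD, n = 3) in WT and 121659 ± 14936 in samd7-/- (log2 0.25, limma adjusted p = 0.82). slc24a2 counts were 2.17, 2.46 and 3.31% of gnat2 counts in the WT larvae and 2.64, 2.79 and 2.81% in the samd7-/- larvae. The mutants lay inside the WT range. Means were 2.65 ± 0.589% and 2.75 ± 0.0926% (SD, n = 3), a log2 difference of 0.08 (exact permutation p = 0.7, two-sided, where 3 against 3 cannot give less than 0.1). The sign was not settled: the difference was −0.056 without WT 1 and −0.33 with quantile normalization. These percentages compare counts that are not corrected for transcript length.

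**Figure D3:**
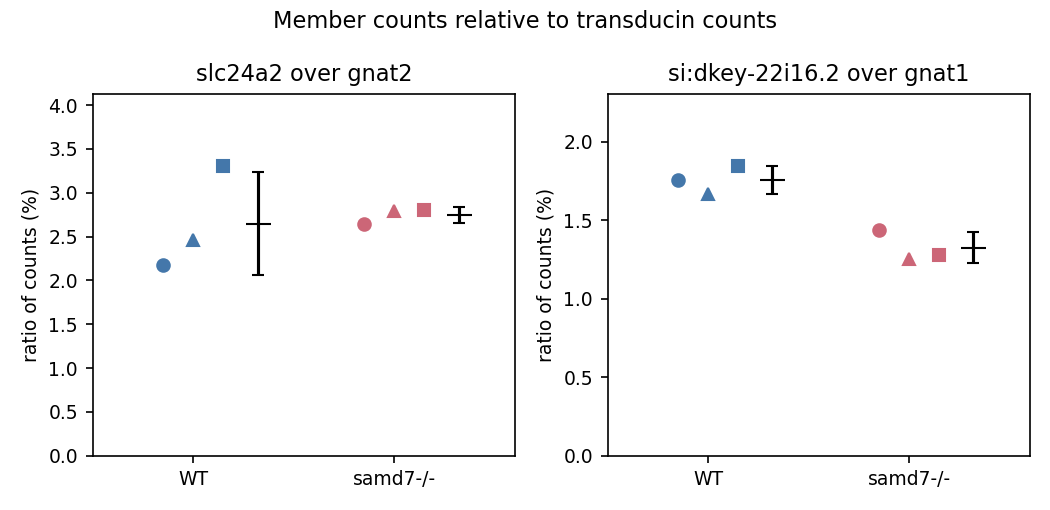
Counts of slc24a2 as a percentage of gnat2 counts (left) and of si:dkey-22i16.2 as a percentage of gnat1 counts (right), per larva, in WT (blue) and samd7-/- (red); black bars are mean ± SD (n = 3) and the vertical axes start at 0. The slc24a2 ratio of the mutants, 2.64 to 2.81%, falls within the WT range of 2.17 to 3.31%, while the si:dkey-22i16.2 ratio does not overlap between genotypes.

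Among other exchangers of the same family, slc24a4a, which in mammals works in olfactory neurons and the brain, stood at 1528 ± 177 in WT and 1704 ± 166 in samd7-/- (SD, n = 3; log2 0.16, SE 0.13, limma adjusted p = 0.853). Its genotypes overlapped. slc24a5, the exchanger of pigment cell organelles whose loss gives the golden zebrafish, stood at 188, 324 and 618 in WT and 250, 513 and 151 in samd7-/-. It varied more than 3-fold within each genotype (log2 −0.32, 95% interval −1.50 to 0.85, limma adjusted p = 0.923). The 7 pigment cell and pigment epithelium markers also varied widely within each genotype, summing to 60934 to 132946 in WT and 42931 to 135548 in samd7-/-, and tyrp1b, the one of highest count, had a log2 fold change of −0.51 (limma adjusted p = 0.862). Relative to slc24a4a, slc24a2 counts came to 168, 178 and 179% in WT and 198, 161 and 235% in samd7-/- (log2 difference 0.16, exact permutation p = 0.4, two-sided). The ratio overlapped between genotypes, and its log2 difference was 0.30 without samd7-/- 2 and 0.031 without samd7-/- 3.

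Of 19 tested genes of the wider list of calcium exchangers and pumps, 0 rose, 0 fell and 19 did not pass with limma. Their median log2 fold change was 0.20, against 0.00 over all tested genes, with 14 positive and 5 negative. At an unadjusted p under 0.05, 1 passed with each of limma, edgeR and DESeq2, and 0 were called by edgeR or DESeq2 after adjustment. The genotypes did not overlap for 5 of the 19, all higher in samd7-/-, while 13.1% of all tested genes did not overlap. All 5 belong to the plasma membrane calcium pumps, the atp2b genes, of which 6 were tested. atp2b2 had counts of 341, 571 and 483 in WT and 653, 748 and 575 in samd7-/- (log2 0.52, SE 0.21, limma adjusted p = 0.74). Its lowest mutant larva stood only just above its highest WT larva. atp2b1b, the one of highest count, had 6324, 6658 and 6680 in WT and 7471, 6813 and 7107 in samd7-/- (log2 0.12, SE 0.10, limma adjusted p = 0.853). atp2b1a, atp2b3a and atp2b3b had log2 fold changes of 0.14, 0.45 and 0.69, with limma adjusted p-values of 0.835, 0.779 and 0.82. For atp2b3a and atp2b3b, WT 1 stood far below the other larvae. atp2b3b had counts of 173, 644 and 594 in WT and 647, 647 and 674 in samd7-/-. atp2b3a had 1152, 2027 and 1851 in WT and 2269, 2102 and 2335 in samd7-/-. These pumps were singled out after their values were seen. atp2a1, the calcium pump of fast muscle and the gene of highest count on the list, stood at 17898 ± 6190 in WT and 16049 ± 8175 in samd7-/- (SD, n = 3).

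**Figure D4:**
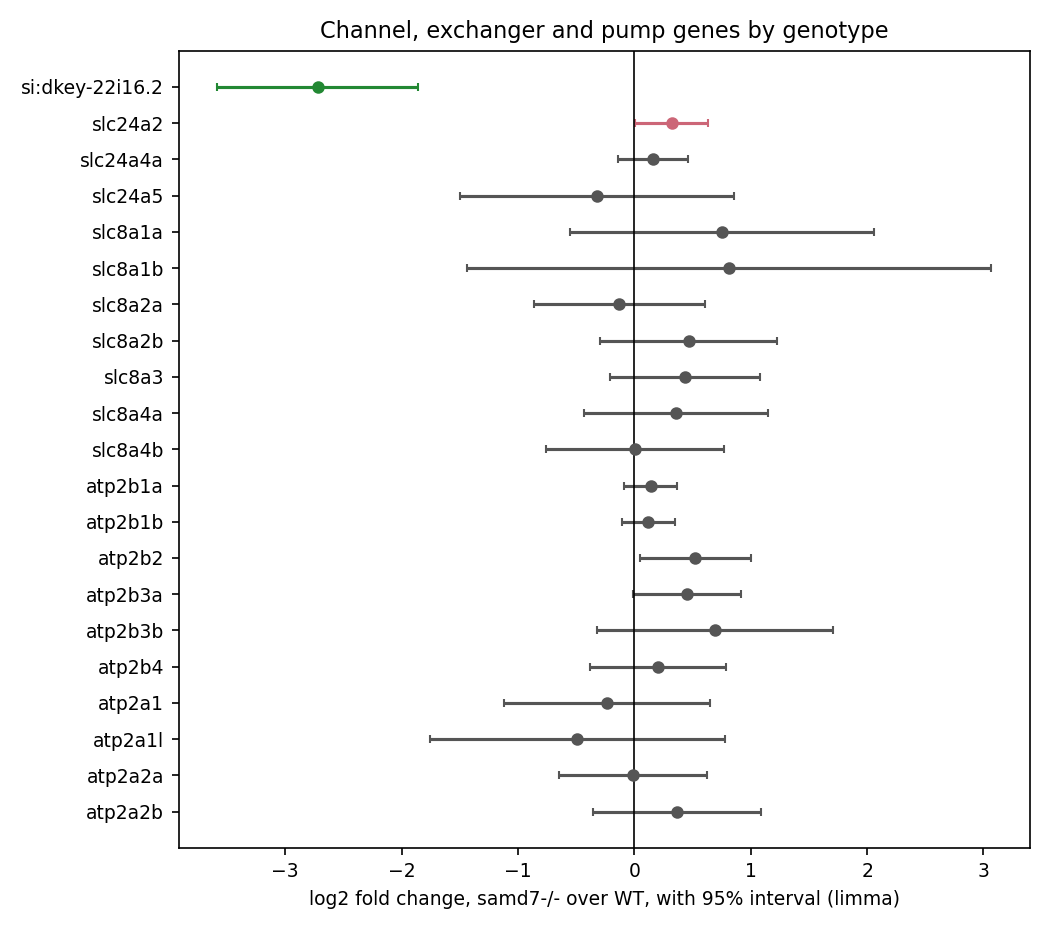
Log2 fold change, samd7-/- over WT, with 95% limma intervals (horizontal axis) for si:dkey-22i16.2 (green), slc24a2 (red) and 19 other calcium exchanger and pump genes (grey). slc24a2 sits at 0.32, the 19 grey genes lie between −0.49 and 0.81, and si:dkey-22i16.2 stands apart at −2.72.

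A rod-type channel gene, cnga1a, fell, while cnga1b and cngb1a were not analysed. si:dkey-22i16.2, which RefSeq names cnga1a, the gene of the pore-forming rod subunit in mammals, gave normalized counts of 489, 424 and 402 for WT and 98.3, 33.4 and 85.1 for samd7-/-. Every mutant larva stood far below every WT larva. It fell by 2.72 on the log2 scale (SE 0.38, limma adjusted p = 0.0332), or 6.58-fold with a 95% interval of 3.62-fold to 12.0-fold. It drew 1331 reads over the WT libraries and 220 over the mutants. edgeR and DESeq2 also called it (adjusted p = 0.034 and 8.4e-12). With limma the call was lost without WT 1 (adjusted p = 0.18), WT 2 (0.13), WT 3 (0.181) or samd7-/- 3 (0.069). In these fits the log2 fold change was −2.64, −2.74, −2.78 and −2.91. The log2 ratio of slc24a2 to si:dkey-22i16.2 was 3.06 higher in samd7-/-, with no overlap (exact permutation p = 0.1, two-sided, the smallest possible). After Benjamini-Hochberg adjustment over 4 ratios this permutation p was 0.2. Such a difference follows from the fall given above, in a gene chosen after its values were seen, and is not a separate result.

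Genes of the rod cascade moved with si:dkey-22i16.2. Of 13 tested, 8 fell, 0 rose and 5 did not pass, the median log2 fold change being −2.21. For 12 of the 13 the genotypes did not overlap, 0 of these higher in samd7-/-, against 13.1% of all tested genes. The gene that did overlap was rcvrna (log2 0.12, limma adjusted p = 0.914). DESeq2 called 10 of the listed genes, against 0.667% of all genes it tested. Among all tested genes, limma called 0.259% lower and 0.0418% higher. The summed list ranged from 338845 to 454488 in WT and from 67068 to 125197 in samd7-/-. The 4 with the smallest p were the rod arrestins sagb (log2 −2.77) and saga (−2.90) and the inhibitory phosphodiesterase subunits pde6g (−1.55) and zgc:112320 (−2.56), with limma adjusted p-values of 0.0102, 0.0202, 0.0202 and 0.0326. RefSeq names the last of these pde6ga. The list's calls numbered 0 without WT 1, WT 2 or WT 3, 4 without samd7-/- 1 and 3 without samd7-/- 3. Over the whole table, 31 genes were called lower with all libraries and 4 without WT 1, WT 2 or WT 3. That count was 19 without samd7-/- 1 and 17 without samd7-/- 3. Relative to gnat1, the alpha subunit of rod transducin, si:dkey-22i16.2 counts came to 1.76, 1.67 and 1.85% for WT and 1.44, 1.25 and 1.28% for samd7-/-. These ratios did not overlap (log2 −0.41, exact permutation p = 0.1, two-sided, the smallest possible; 0.2 after Benjamini-Hochberg adjustment over 4 ratios). gnat1 itself fell from 25007 ± 3042 to 5382 ± 2359 (SD, n = 3; log2 −2.33, limma adjusted p = 0.0354).

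On the list for the cone cascade, slc24a2's mammalian setting, 1 of 24 tested genes rose, 3 fell and 20 did not pass. Of all tested genes, limma called 0.0418% higher and 0.259% lower. The gene that rose was arr3b, a cone arrestin (log2 1.44). Those that fell were arr3a, the other cone arrestin (log2 −6.88), guca1a, a guanylate cyclase activator (−1.45), and rgs9b, which switches transducin off (−1.59). Whether the listed genes are made in cones alone was not tested. The median log2 fold change was 0.09, and the summed list overlapped between genotypes. Single genes did not overlap in 10 of the 24, 3 of these higher in samd7-/-, while 13.1% of all tested genes did not overlap. DESeq2 called 8 of the listed genes, all lower in samd7-/- except arr3b, against 0.667% of all genes it tested. The limma calls numbered 1 without WT 1, WT 2 or WT 3 and 2 without samd7-/- 1. pde6c, the catalytic cone phosphodiesterase subunit, chosen after its values were seen, had a log2 fold change of 0.62 (limma adjusted p = 0.523). pde6h, on the same list, went the other way (log2 −1.02, limma adjusted p = 0.163). gucy2f and gc2 were also lower (log2 −2.38 and −1.68, limma adjusted p = 0.25 and 0.268). These were likewise chosen after their values were seen, and DESeq2 called pde6h, gucy2f and gc2. Among 11 genes whose products bind channel subunits in mammals or belong to the same rim complex, 2 fell, rom1a and rom1b (log2 −2.55 and −2.74), and 0 rose. These 2 calls were lost without WT 1, WT 2 or WT 3, fits in which 4 genes of the whole table were called lower. The 6 calmodulin genes, whose product tunes the channels, had log2 fold changes from −0.13 to 0.07. Of the 4 other photoreceptor channel genes tested, kcnv2b, cacnb2a, cacnb2b and ano2, 0 passed with limma, edgeR or DESeq2, adjusted or not; cacnb2b, the one of highest count, stood at 452 ± 18.0 and 439 ± 33.5.

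Summed levels of markers of other eye cells are given by genotype here, and their part in the slc24a2 values was not tested. The amacrine and horizontal cell list summed to 25052 to 27019 in WT and 28807 to 31232 in samd7-/-, without overlap. The ganglion cell list, at 12219 to 14606 and 14261 to 16321, the bipolar list, at 27507 to 30074 and 28658 to 33252, and the Muller glia list, at 182136 to 223683 and 187759 to 212420, overlapped. The lens list ranged from 1439077 to 2646992 in WT and from 1136817 to 1789974 in samd7-/-, also overlapping. All 12 tested lens markers had negative fold changes (median log2 −0.52), with 0 called and 3, 5 and 7 under an unadjusted p of 0.05 with limma, edgeR and DESeq2. Over these lists and the olfactory and pigment lists, 0 of 56 tested markers were called by limma, edgeR or DESeq2, and 9, 10 and 13 had an unadjusted p under 0.05. Among all tested genes the shares under 0.05 were 6.33, 6.41 and 5.82%. The marker of highest count on each list was slc6a1b, a GABA transporter (log2 0.37, limma adjusted p = 0.739), for amacrine and horizontal cells and rbpms2b, an RNA-binding protein (log2 0.25, 0.791), for ganglion cells. For bipolar cells it was vsx1, a homeobox factor (log2 0.03, limma adjusted p = 0.972), for Muller glia glula, a glutamine synthetase (log2 0.06, 0.951), and for the lens crybb1, a crystallin (log2 −0.50, 0.82). gap43 of the ganglion cell list was at 0 in every library. Of 8 cone markers, 2 fell with limma (opn1mw1 and opn1mw2, green opsins), with summed levels that overlapped. Fold changes were positive for 5 and negative for 3. The genotypes did not overlap for 7 of the 8, 4 of these higher in samd7-/-, while 13.1% of all tested genes did not overlap. Of 6 tested pineal markers, aanat2 fell and exorh rose with limma, which called 0.259% of all tested genes lower and 0.0418% higher. The pineal list summed to 10480 to 10741 in WT and 10837 to 12829 in samd7-/-, without overlap. Most of each sum was otx5, at 6585 to 6947 in WT and 8292 to 9240 in samd7-/- (log2 0.40, limma adjusted p = 0.484). The libraries were made from eyes, and whether otx5, aanat2 or exorh came from pineal cells was not tested. Calls on either list changed with single libraries left out: each list had 1 call without WT 1, WT 2 or WT 3, the cone markers had 3 without samd7-/- 3, and the pineal markers had 1 without samd7-/- 1 or samd7-/- 3. DESeq2 called 4 cone markers: opn1mw1 and opn1mw2, which were lower in samd7-/-, and opn1lw1 and opn1sw2, which were higher (limma log2 2.49 and 0.92). Of all genes it tested, DESeq2 called 0.667%.

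The genes whose profile over the 6 larvae was most like that of slc24a2 were sought among 10348 genes with a mean of at least 50, by the root mean square difference of centred log2(value + 1). They were dll4, a Notch ligand (0.0486), slc43a3b, a solute carrier (0.0559), and npnt, an extracellular matrix protein (0.0566). dll4 stood at 340, 375 and 434 in WT and 486, 401 and 482 in samd7-/-. As with slc24a2, its highest WT larva was WT 3 and its lowest mutant samd7-/- 2, a likeness that follows from how it was chosen. None of these 3 passed with limma (adjusted p = 0.82, 0.791 and 0.793).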

How the data were processed

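Per the labels' protocols, libraries were made from 10 ng of total RNA per larva with the SMARTer Ultra Low kit, amplified for 12 cycles as cDNA and 12 as library, and read as pairs of 150 bp. The kit does not mark strand. The submitters' processing notes name danRer10 as the build, and R 4.1.3, DESeq2 1.34.0, HTSeq 0.9.1, STAR 2.7.2b and Trim Galore 0.6.1 as tools. No source used here names the annotation. The deposited values are a normalized signal, reads divided by 1 size factor per library by the authors. The authors' deposited log2 fold changes and adjusted p-values served only as an alternative.

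All values (100%) were whole multiples, within 0.001, of the value of 1 read, so reads were recovered; for samd7-/- 2 that value, 1.01, lies too near 1 for an automatic check. The main test was limma 3.58.1 (limma-trend, R 4.3.3) on log2(value + 1). Recovered reads were tested with edgeR 4.0.16 and DESeq2 1.42.0. The code was first tested on simulated data. No library pair agreed within sampling noise (chi-square per degree of freedom at least 42.9). Of 179 list symbols, 7 were matched through RefSeq synonyms (GRCz12tu). Ensembl gives 2 IDs the name slc24a2 and the table has 1 row for it. Which of these IDs the row counts is not known, and this holds for every slc24a2 value above. Members and lists were chosen with earlier results of these data known. Every member is named, and of each list the calls of smallest p (at most 4), or else the gene of highest mean. Other genes were named after their values were seen.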

Additional observations from a re-analysis of the deposited data

How the results depend on the processing

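slc24a2 stayed positive and did not pass in any of 17 alternatives, namely the replicate block, leaving out each of the 6 libraries, no filter, a minimum of 50, pseudocounts of 0.5 and 10, TMM factors, quantile normalization, robust moderation, edgeR, DESeq2 and the authors' deposited table (log2 0.26 to 0.43, adjusted p 0.66 to 0.987). The count of members called was 0 in each. The ratio of slc24a2 to gnat2, 0.08 on the log2 scale, turned to −0.33 with quantile normalization (exact permutation p = 0.1, two-sided). It ranged from −0.056 (without WT 1) to 0.25 with 1 library left out. The log2 fold change of slc24a2 itself was 0.33 with quantile normalization, against 0.32 in the main fit. The cause of the changes in the ratio was not tested. With the replicate block slc24a2 had a limma adjusted p of 0.697, and that ratio an exact permutation p of 0.75, where 3 pairs cannot give less than 0.25. Same-numbered libraries correlated by 0.029, 0.18 and −0.0024 in their deviations from the group means, so the numbers were not taken to pair larvae. With the block 33 genes were called against 36 without it. The call for si:dkey-22i16.2 was kept in 13 of 17 alternatives. Shares among channel paralogs, and the other channel and slc24a1 ratios, could not be computed from the genes at hand. DESeq2 called 92 genes.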
